A study of Mus musculus with 2 samples.

Results

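Mitochondrial fatty acid oxidation was followed through 10 genes: the acyl-CoA dehydrogenases Acadl, Acadm, Acadvl and Acads, the carnitine transfer genes Cpt1a, Slc25a20 and Cpt2, and the genes of the later steps Hadha, Hadhb and Acaa2. They were taken by gene symbol from the 22609 genes of the deposited tables, and all 10 were found and passed a minimum of 20 counts over both libraries. An Ago2 antibody was used to recover RNA from TM4, an established mouse Sertoli cell line, which had been given either miR-471-5p mimic or scramble 48 h before. There was 1 library of each, with 18628310 and 18717225 reads counted on genes, so no difference has a replicate check and no p-value is given. Ago2 holds a miRNA on the mRNAs it pairs with. RNA from before the antibody step was not analysed here, so more mRNA in the cells and more mRNA on Ago2 cannot be told apart.

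Fatty acids enter the mitochondrial matrix as carnitine esters and are then shortened in cycles, each begun by an acyl-CoA dehydrogenase that suits the length of the chain. The electrons go to the respiratory chain and the acetyl-CoA to the TCA cycle. Sertoli cells engulf the germ cells that die during spermatogenesis and can burn the lipid they take in, and the study followed ACADL protein in its work on this engulfment. The comparison of the libraries asks which of these mRNAs lie more or less on Ago2 when miR-471-5p is raised.

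Of the 10 genes, Acadl carried a match to the miR-471-5p seed in its coding region, and the other 9 carried none in the coding region or 3′-UTR of any annotated coding transcript. The search was for the shortest standard match, CTACGT, which pairs with bases 2 to 7 of the miRNA, and it read the mRNA strand only. The Acadl site is the longer 7mer-m8 match, ACTACGT, which pairs with bases 2 to 8. It starts at base 935 of the 1293-base coding region, in exon 8 of 11, at chr1:66841665-66841671 on the minus strand in GRCm38. The miRNA sequence from RefSeq (GRCm38.p6) is shown with its seed in capitals, and below it are 30 bases of the Acadl mRNA from GENCODE M21 with the match in capitals, both 5′ to 3′.
miR-471-5p: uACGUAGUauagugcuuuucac
Acadl: catgtttgaagaaaccaggaACTACGTgaa

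Beyond the seed, 4 of the 14 miRNA bases from 9 to 22 faced a complementary base at this site without gaps. The shortest match, CTACGT, was present in the coding region of 1780 of 10729 counted genes with a coding region, or 16.6%, beside 1 of the 10 genes. In the 3′-UTR it was present in 723 of 10715, or 6.75%. A match in 1 of 10 genes is therefore not unusual. A 7mer-m8 match in the coding region was present in 483 of 10729, or 4.5%, and in the 3′-UTR in 166 of 10715, or 1.55%. The 483 genes had a median log2 ratio of mimic to scramble of -0.03, against -0.00063 in genes without the match, and Acadl stood at percentile 68.9 among them. Of the 483, 81 (16.8%) were at least 1.5-fold higher in the mimic library, against 11.7% of all counted genes. At least 1.5-fold lower were 57 of the 483, against 9.11% of all counted genes. Both the higher and the lower share thus lay above that of all 12186 counted genes. The latter include genes without an annotated coding region, and the shares in genes without the match are not given. The 51 genes with the longer coding 8mer match, ACTACGTA, which Acadl does not have, had a median log2 ratio of 0.10. Of these, 11 (21.6%) were at least 1.5-fold higher and 6 at least 1.5-fold lower. These are counts over genes of 2 libraries, and a match is a description of letters, not a site shown to be bound.

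**Figure D1:**
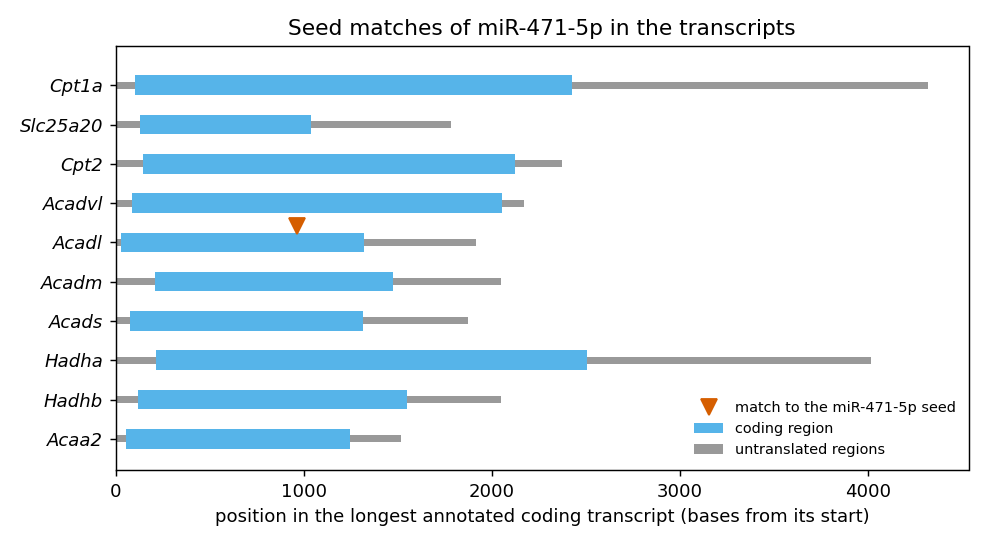
Longest annotated coding transcript of each of the 10 genes, drawn to scale in bases from its start, with the coding region in blue, the untranslated regions in grey and a triangle at each match to the miR-471-5p seed. The single triangle lies in the coding region of Acadl.

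Levels were first compared between the genes within each library, as counts per kilobase of the longest annotated coding transcript per 1000000 counts on genes. By this length Acadl, the long-chain acyl-CoA dehydrogenase, stood highest in both libraries. The top place depended on the length used. By the median length of coding transcripts, 945.5 bases for Cpt2 and 1916 for Acadl, Cpt2 stood above Acadl in both libraries. By the longest transcript, the level of Acadl was 161 in the scramble library (exact 95% Poisson interval 157 to 166, counting error only) and 191 in the mimic library (187 to 196). In the scramble library this lay at percentile 97.9 of the 10991 counted genes with a length, whose median level was 11.3. Acads, which acts on short chains, followed at 148 in the scramble and 134 in the mimic library, and Cpt2, the carnitine palmitoyltransferase of the inner membrane, at 105 and 94. Acadl thus led Acads by 1.09-fold in the scramble library and by 1.43-fold in the mimic library.

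The middle of the order was held by the remaining dehydrogenases. Acadm, the medium-chain enzyme, had a level of 60.8 in the scramble and 52.6 in the mimic library, and Acadvl, the very-long-chain enzyme, had 52.9 and 42.3. Hadha, the subunit of the trifunctional protein with the hydratase and long-chain hydroxyacyl dehydrogenase activities, had 48.3 and 38.7. Acaa2, the thiolase of the matrix, had 36.7 and 40.2, so Hadha and Acaa2 changed places between the libraries. Cpt1a, the transferase of the outer membrane that controls entry, stood at 23.6 and 26.6, and Slc25a20, the carnitine-acylcarnitine carrier, at 16.5 and 15.7. In the scramble library 0 of the 9 neighbouring pairs in this order had overlapping intervals, while in the mimic library 2 did, Acadvl with Acaa2 and Acaa2 with Hadha.

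Hadhb, the thiolase subunit of the trifunctional protein, was lowest at 5.01 in the scramble and 5.06 in the mimic library, although the proteins of Hadha and Hadhb form 1 complex. Hadha exceeded it 9.64-fold and 7.64-fold per kilobase. Of the 1999 windows of 50 bases in the Hadhb transcript, 62.4% also occurred in a transcript of another annotated gene, the processed pseudogenes Gm13910 and Gm9108. Reads that aligned to more than 1 place were not assigned to genes, and such alignments made up 39.8% of all entries in the mimic and 35.6% in the scramble table. Counted per kilobase of windows found in no other gene, the Hadhb level was 13.6 and 13.8, still the lowest of the 10. The level of Hadhb is therefore uncertain, and its ratio between libraries rests on 193 and 192 reads.

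Acadvl shared 24% of its windows with the neighbouring gene Dvl2, which overlaps it on the opposite strand, and Acadm shared 4.1%, with the processed pseudogene Gm5131 and a lincRNA that overlaps this pseudogene. Per kilobase of their own windows, the scramble levels were 71.2 for Acadvl and 64.9 for Acadm, which turned their order round. Hadha shared 0.655% of its windows, and Acadl, Acads, Cpt1a, Cpt2, Slc25a20 and Acaa2 shared 0%. The strand setting of the counting is not given in the sources used here, so reads of Acadvl and Dvl2 may not have been separable where they overlap. The read length is not given either, and 50 bases was a choice made after the low count of Hadhb had been seen.

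**Figure D2:**
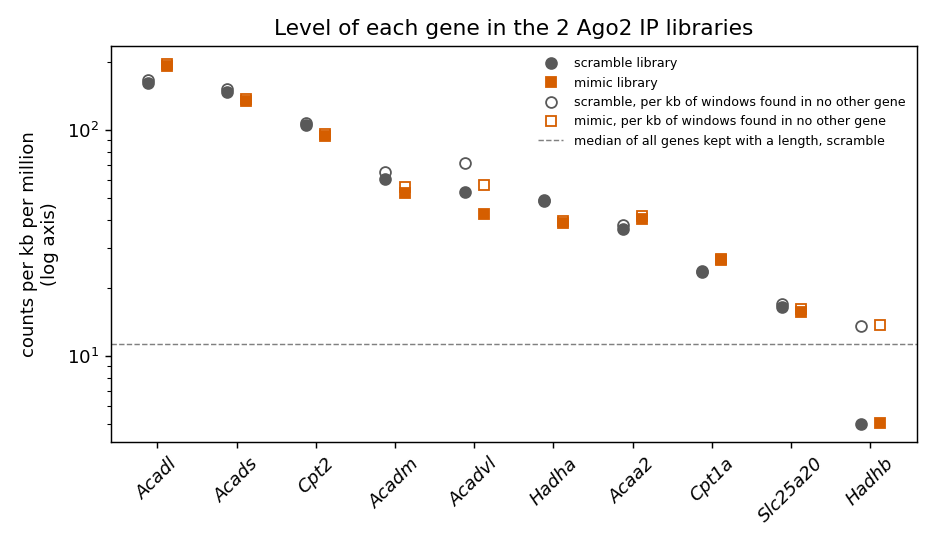
Level of each gene in counts per kilobase per 1000000 counts (log axis) in the scramble library (grey circles) and the mimic library (orange squares), ordered by the scramble level. Filled symbols use the transcript length and open symbols the windows found in no other gene, and the dashed line is the median of all counted genes with a length, 11.3. Hadhb alone lies below the line by transcript length, and above it by its own windows.

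Between the libraries, the 4 dehydrogenases did not move together. Acadl was counted 6821 times with mimic and 5791 times with scramble, which gives a log2 ratio of 0.24 and an exact 95% Clopper-Pearson interval of 0.18 to 0.29 that covers counting error only. It lies on the minus strand at chr1:66830839-66863277 (GRCm38) and has 1 annotated coding transcript. The ratio was the highest ratio of the 10 genes and 1.18-fold in size, before the regression on length and GC content given below. Acadm, the enzyme whose loss causes medium-chain acyl-CoA dehydrogenase deficiency, was counted 2005 and 2328 times, at a log2 ratio of -0.22 (-0.30 to -0.13). Acads had 4665 and 5173 reads and a log2 ratio of -0.15 (-0.21 to -0.09). Acadvl had 1710 and 2147 reads and the lowest log2 ratio of the 10, -0.33 (-0.42 to -0.24). Acadl alone of the 4 dehydrogenases had more reads in the mimic library, and the interval of its ratio did not overlap that of any other of the 4. The sum of the 4 was nearly level, with 15201 and 15439 reads and a log2 ratio of -0.02 (-0.06 to 0.01).

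The carnitine transfer genes were as mixed. Cpt1a was counted 2143 times with mimic and 1906 times with scramble, at a log2 ratio of 0.17 (0.08 to 0.26). Cpt2, which acts in the same shuttle on the inner face of the membrane, had 4154 and 4666 reads and a log2 ratio of -0.17 (-0.23 to -0.11). For Slc25a20 the counts were 520 and 552, and its interval of -0.26 to 0.09 included 0. The transferases of the outer and the inner membrane thus lay on opposite sides of 0 by similar amounts.

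In the later steps, Hadha (chr5:30118304-30155162, minus strand) was counted 2893 and 3632 times, at a log2 ratio of -0.33 (-0.40 to -0.26). Its partner Hadhb, which lies head to head with it (chr5:30155248-30184593, plus strand), had 193 and 192, a log2 ratio of 0.01 with an interval of -0.29 to 0.30 that includes both 0 and the ratio of Acadl. Acaa2 was counted 1135 and 1040 times, at a log2 ratio of 0.13 whose interval, 0.0028 to 0.25, ended just above 0. Among these 3 genes, Hadha was separated from Acaa2 beyond counting error. The wide interval of Hadhb overlapped those of both. Such overlap does not show that 2 ratios are alike, and the difference of Hadhb from Hadha or Acaa2 is not given here.

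**Figure D3:**
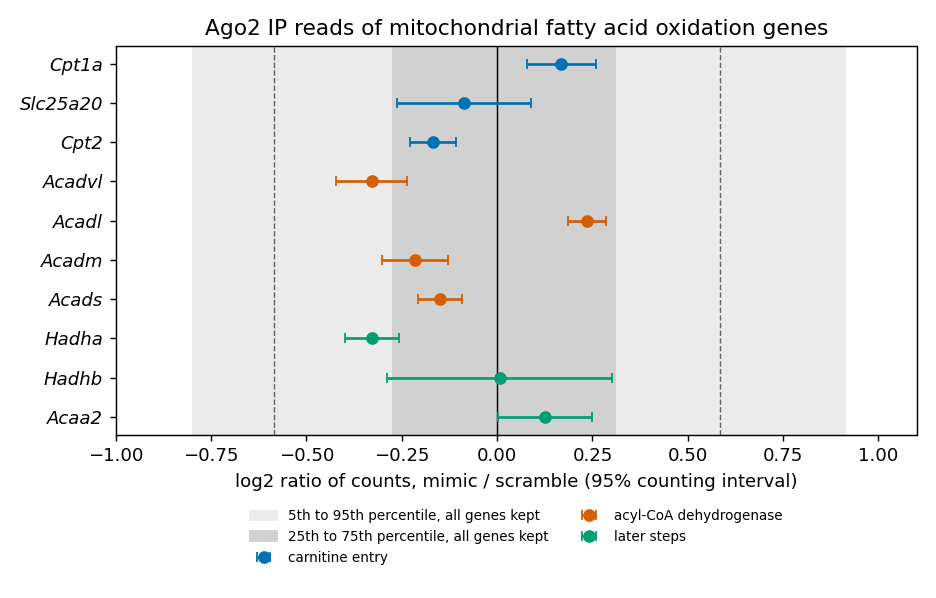
Log2 ratio of mimic to scramble for each gene, with exact 95% intervals for counting error, coloured by role. Dark and light grey bands span the 25th to 75th and 5th to 95th percentiles of all counted genes, and dashed lines mark 1.5-fold. The 10 points lie between -0.33 and 0.24, inside the dashed lines, with Acadl farthest right.

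The ratio of Acadl was set against each of the other 9 as a difference of log2 ratios, with 95% intervals from the 4 counts of each pair (normal approximation on the log scale, counting error only). The difference was 0.56 (0.46 to 0.67) against Acadvl, 0.56 (0.48 to 0.65) against Hadha, 0.45 (0.35 to 0.55) against Acadm and 0.40 (0.33 to 0.48) against Cpt2. It was 0.39 (0.31 to 0.46) against Acads and 0.32 (0.14 to 0.50) against Slc25a20. Against Cpt1a it was 0.07 (-0.04 to 0.17), against Acaa2 0.11 (-0.02 to 0.24) and against Hadhb 0.23 (-0.06 to 0.52). Acadl was therefore above 6 of the 9 beyond counting error, and 3 could not be separated from it at this depth. Over 117 other listed genes of lipid and energy metabolism, the 3 with log2 ratios nearest to that of Acadl were Ldha, lactate dehydrogenase A, at 0.23, Ech1, a dienoyl-CoA isomerase, at 0.23 and Idh2, the mitochondrial isocitrate dehydrogenase, at 0.24. With 2 libraries this likeness is a single value for each gene and many genes share it.

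None of the 10 genes differed by 1.5-fold, a log2 ratio of 0.585, in either direction. Over the 12186 counted genes, 11.7% were at least 1.5-fold higher in the mimic library and 9.11% at least 1.5-fold lower. The interval for counting error lay above 0 in 3 of the 10 genes (Acaa2 only barely, and not without the count filter), against 31.5% of all genes, and below 0 in 5, against 32.5%. At this depth, passing counting error was thus common and does not mark these genes. Their median log2 ratio was -0.12, against -0.00063 over all genes, whose 25th and 75th percentiles were -0.27 and 0.31. Together the 10 genes took 1409 CPM (counts per 1000000 on genes) with mimic and 1465 CPM with scramble, at a log2 ratio of -0.06 (-0.09 to -0.04). Acadl made up 26% of these reads with mimic and 21.1% with scramble.

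Transcript length moved with the ratio across all genes. When genes were put into 10 groups of nearly equal size by length, the median log2 ratio was 0.45 in the group with the shortest transcripts (median 1.04 kb) and -0.26 in the group with the longest (median 8.23 kb). The 10 genes are short, with a median of 2.05 kb, and the length group at that value had a median log2 ratio of 0.11. A regression on the length and GC content of coding region and 3′-UTR accounted for 18.2% of the variance over 10714 genes. After it, Acadl was at 0.21, Cpt1a at 0.34 and Hadhb at -0.01, while the other 7 lay from -0.07 in Acaa2 to -0.47 in Acadvl. The median of the 10 was then -0.20, so length and GC content did not bring the set nearer to the rest of the genes.

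**Figure D4:**
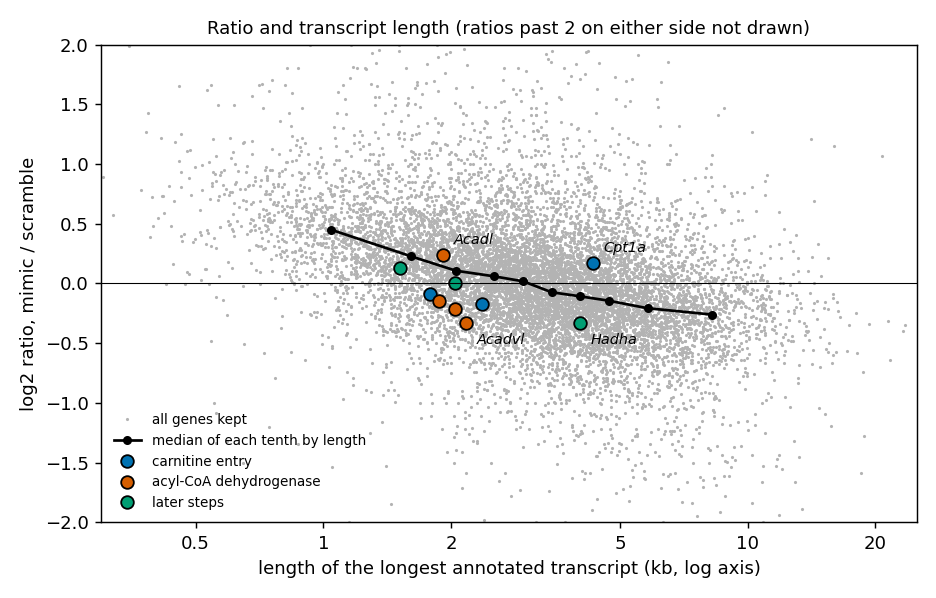
Log2 ratio of mimic to scramble against the length of the longest annotated transcript (kb, log axis) for all counted genes (grey), the median of each of 10 length groups (black line) and the 10 genes coloured by role. The black line falls from 0.45 to -0.26. Acadl and Cpt1a lie above it and Acadvl and Hadha below it.

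The wider pathway was read from lists of other genes. Of 31 further genes of mitochondrial oxidation, 30 were counted, with 0 at least 1.5-fold higher and 3 at least 1.5-fold lower, beside the 11.7% and 9.11% of all genes, and a median log2 ratio of -0.04. The 3 were Slc22a5, the plasma membrane carnitine transporter (145 and 245 reads, log2 ratio -0.76), Acad12 (68 and 124 reads, -0.87) and Acad11 (302 and 456 reads, -0.60), both acyl-CoA dehydrogenase family genes. Among 11 counted genes of the shuttle and of fatty acid activation the median was -0.15, ratios ran up to 0.54 in Slc27a1, a fatty acid transport protein, and the muscle form of the outer transferase, Cpt1b, had 0 reads in both libraries. Of the 8 other dehydrogenases 7 were below 0, with a median of -0.21, and the highest was Gcdh, glutaryl-CoA dehydrogenase, at 0.22. The 7 include Acad10, which had equal counts of 53 and 53, and the intervals of Acad8, Acad9 and Acad10 included 0.

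The matrix hydratases, isomerases and thiolases ran the other way, with 7 of 8 genes above 0 and a median log2 ratio of 0.22. Hsd17b10, a hydroxyacyl-CoA dehydrogenase, was highest at 0.49 (1508 and 1070 reads) and Decr1, a dienoyl-CoA reductase, lowest at -0.14. After the regression on length and GC content the median of these 8 was 0.04, that of the 8 other dehydrogenases -0.08 and that of the shuttle and activation genes -0.04, so the lists lay closer together. The electron acceptors of the dehydrogenases were split. Etfb, a subunit of the electron transfer flavoprotein, had 1383 and 1034 reads (0.42), and Etfdh, which passes the electrons to ubiquinone, had 882 and 1260 (-0.52). After the regression Etfb was at -0.05 and Etfdh at -0.52.

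Peroxisomes shorten the longest chains, and 12 of their genes were counted, around a median of 0.02. At least 1.5-fold higher were 0 and at least 1.5-fold lower 2, beside 11.7% and 9.11% of all counted genes. The 2 were Hsd17b4, the bifunctional enzyme, with 743 and 1239 reads (-0.74), and Crot, with 2393 and 3736 (-0.64). Crot makes carnitine esters for export to mitochondria. The highest was the thiolase Acaa1a at 0.43, whose reads may be shared with its paralog Acaa1b. Of 15 regulators, which include the PPAR receptors and AMPK subunits, 0 were at least 1.5-fold higher and Prkab2, an AMPK subunit, was at least 1.5-fold lower with 624 and 998 reads (-0.68). Their median was -0.16, with 11 of 15 below 0. Ppard, a nuclear receptor that binds fatty acids, was highest at 0.50 with 2213 and 1563 reads, while Ppara had only 34 and 37 reads.

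Among the lists of lipid metabolism, known PPAR targets and lipid droplet genes held the highest ratios. Of 11 listed targets 5 were counted, with a median log2 ratio of 0.61, and 3 were at least 1.5-fold higher: Angptl4, a secreted inhibitor of lipoprotein lipase (1682 and 781 reads, log2 ratio 1.11), Acot1, an acyl-CoA thioesterase (134 and 75, 0.84), and Plin2, a coat protein of lipid droplets (2822 and 1852, 0.61). Acot2, at 0.41 (273 and 206 reads), is a close paralog of Acot1, so the reads of both are uncertain. Of 10 genes of lipid storage and release, 3 were at least 1.5-fold higher and 0 lower, while the median was 0.03. Over all counted genes, 11.7% were at least 1.5-fold higher and 9.11% lower. Dgat2 and Dgat1, which make the last step of triglyceride synthesis, had log2 ratios of 1.29 (198 and 81 reads) and 0.81 (251 and 143), and Mgll, the monoglyceride lipase, had 0.97 (102 and 52). The lowest was Scarb1, a lipoprotein receptor that also takes part in germ cell engulfment, at -0.25. The classical PPAR targets Pdk4, Cd36, Fabp3, Fabp4 and Ucp2 had at most 7 reads in either library.

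**Figure D5:**
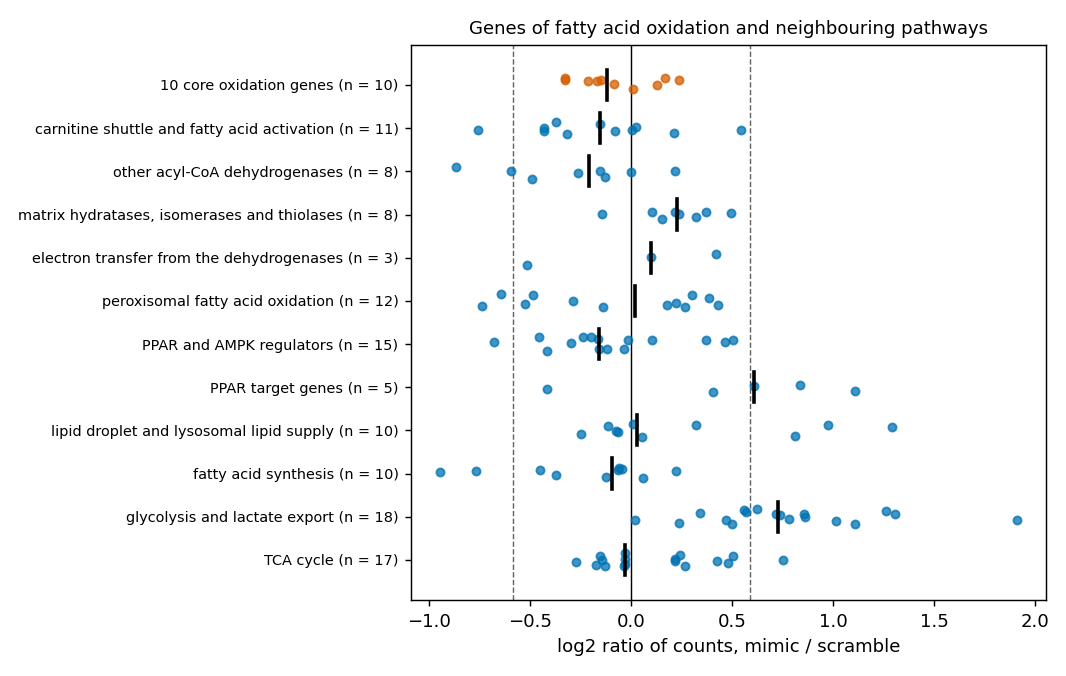
Log2 ratio of mimic to scramble for each counted gene of the 10 core genes (orange) and of the other lists (blue), with a black bar at each list's median and dashed lines at 1.5-fold. The core genes lie inside the dashed lines, and 11 of 18 glycolysis genes lie beyond the right line.

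Among the 30 further genes of mitochondrial oxidation, 7mer-m8 matches were found in 3 coding regions and 1 3′-UTR. These genes are named because they hold a match, a choice made after their values were seen. They are shown, 30 bases each with the match in capitals, because the same 7 letters stood beside ratios on both sides of 0.
Cpt1c: caagtcctggtgtacttccaACTACGTcag
Acadsb: agctgataaaagtggaaattACTACGTcct
Slc22a5: tggcatgggtcagatctccaACTACGTggc
Acsl3: aatcccggctgttacttctcACTACGTcac

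Cpt1c, a transferase of the endoplasmic reticulum, had 265 reads with mimic and 229 with scramble, at a log2 ratio of 0.21 with an interval of -0.05 to 0.47 that included 0. Its match crosses the end of exon 6. The other 3 were lower in the mimic library: Acadsb, the short/branched-chain dehydrogenase, at -0.27 (2446 and 2940 reads), Slc22a5 at -0.76, and Acsl3, which activates fatty acids and holds its match in the 3′-UTR, at -0.43 (648 and 874 reads). In GRCm38 their matches lie at chr7:131430029-131430035 (plus strand), chr11:53876026-53876032 (minus strand) and chr1:78706534-78706540 (plus strand). Their intervals all lay below 0. After the regression on length and GC content Acadsb was at -0.01, Acsl3 at -0.21 and Slc22a5 at -0.70.

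The cell line was checked against testis markers. Of 15 Sertoli cell markers 7 were counted, led by Kitl with 12245 and 16163 reads and Sox9 with 1228 and 1070, while Gata1 and Fshr had 0 reads in both libraries. Leydig, germ cell and macrophage markers summed to at most 7.91 CPM for each list and library. Of the 4 peritubular myoid markers Acta2 had 73076 and 101778 reads, and Myh11, Cnn1 and Des at most 17. The part of these levels in the values above was not tested.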

How the data were processed

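Ago2 RNA immunoprecipitates of 2 TM4 cultures, 1 library per group, were analysed. The authors deposited raw counts per gene symbol without normalization. The submitters' processing notes name CASAVA 1.8.2, TopHat2 2.0.8b, HTSeq and build mm9; annotation, strand setting and read length are not given in the sources used here. The 5 summary rows (no gene, ambiguous, low quality, not aligned, not unique) were left out of totals.

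From these counts, 12186 of 15973 genes with any count were kept at 20 counts or more over both libraries and scaled with TMM (edgeR 4.0.16, R 4.3.3). Each ratio has a Clopper-Pearson interval, computed exactly from the share of its counts in the mimic library. With 1 library per group no test across genes was run, and 1.5-fold served as the call. A count of 3 corresponds to 0.161 and 0.16 CPM. Counts are not independent molecules, so intervals cover counting error only. Lengths, coding regions and 3′-UTRs came from GENCODE M21 (GRCm38) by symbol, the miRNA from RefSeq, with no mm9 coordinates used. Calculations used Python 3.11.15, numpy 2.4.6, scipy 1.17.1 and pandas 2.3.3, and were tested on simulated data.

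Named were the 10 genes, the highest and lowest gene of each metabolic list with at least 100 counts, mitochondrial genes past 1.5-fold, the 3 listed genes nearest to Acadl, and markers at 0, except items not reported here. Further genes were named after their values were seen. Members and lists were chosen with earlier results of these data known. Alternatives were DESeq2 1.42.0 size factors, total counts, no count filter or 200 counts, 2-fold, other transcripts, and the regression on length and GC content, whose residuals were centred on the median of all fitted genes.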

Additional observations from a re-analysis of the deposited data

Results flagged for a closer look

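Alignments to more than 1 place were singled out because they lie outside the gene counts and took a larger share in the mimic table, 39.8%, than in the scramble table, 35.6%. Among the 10 genes, Hadhb shared most sequence with other genes.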

How the results depend on the processing

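Under the 4 alternatives of scaling and count filter, all 40 log2 ratios of the 10 genes stayed inside their counting intervals, with a largest shift of 0.0106. Without the count filter, the genes with an interval that left out 0 were 7 in place of 8, because Acaa2 moved to 0.12 and its lower bound of 0.0028 passed 0. The regression on length and GC content turned Acaa2 from 0.13 to -0.071 and moved the median of the 10 from -0.12 to -0.20. It also moved Cpt1a from 0.17 to 0.34, Cpt2 from -0.17 to -0.23 and Acadvl from -0.33 to -0.47. Acads went from -0.15 to -0.35 and Hadha from -0.33 to -0.17. Each of these left its counting interval. Cpt1a then stood above Acadl, which was at 0.21, so the top rank of Acadl did not hold under the regression. At 2-fold, 0 of the 30 further mitochondrial genes were called, in place of 3. The span of levels from highest to lowest gene in the scramble library was 32.2-fold. By the median length of coding transcripts it was 52.4-fold, with Cpt2 in place of Acadl as the highest gene. By windows found in no other gene, an alternative chosen after seeing the data, it was 12.1-fold. There were no replicates, and at this depth Cpt1a, Acaa2 and Hadhb could not be separated from Acadl.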

Other observations

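Neighbouring energy pathways differed in their ratios. All 18 counted genes of glycolysis and lactate export had more reads in the mimic library, 11 of them by at least 1.5-fold, with a median log2 ratio of 0.73. Hk2, an inducible hexokinase, had 846 and 225 reads (1.91) and Pfkm, a phosphofructokinase, 2853 and 2820 (0.02). After the regression on length and GC content the median was 0.65. The glycolysis genes took 8339 CPM with mimic and 4931 CPM with scramble. Gapdh and Eno1 had at most 20 reads in either library, and both have many near-identical copies in the genome. Gapdh is among the 11, but its interval, -0.27 to 2.07, included 0. So did those of Eno1 (-0.71 to 1.42) and Pfkm (-0.06 to 0.09).

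The TCA cycle, which burns the acetyl-CoA of both routes, had a median log2 ratio of -0.03 over 17 genes, with Ogdh, a subunit of the oxoglutarate dehydrogenase complex, highest at 0.75 and the only 1 past 1.5-fold, and Sucla2, a succinyl-CoA synthetase subunit, lowest at -0.27. In fatty acid synthesis 8 of 10 genes were below 0, with a median of -0.10. At least 1.5-fold lower were 2, against 9.11% of all counted genes. Acly, which makes cytosolic acetyl-CoA, had 2547 and 4908 reads (-0.95), Elovl6, an elongase, 1007 and 1714 (-0.77), and Elovl5 was highest at 0.22. Whether these lists differ from the oxidation genes beyond the spread between cultures could not be tested with 1 library of each group.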
